A study of Mus musculus with 6 samples.

Results

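Mitochondrial ribosomal protein genes were described across 6 RNA-seq libraries of mouse pancreatic cancer organoids. Members were the genes whose symbols read Mrpl or Mrps followed by a number, with pseudogenes and antisense genes left out. This rule took 78 of the 14254 genes in the table, and all 78 passed the filter on low values. The table also listed Mrpl23-ps1, a processed pseudogene, which the rule left out. The rule used names only, so no measured value chose a member.

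Mitochondria carry their own ribosome, the mitoribosome, which makes the few hydrophobic subunits of the respiratory chain that are encoded in mitochondrial DNA. Its RNAs come from mitochondrial DNA, whereas all of its proteins are encoded in the nucleus, made in the cytosol and imported. Mrpl genes encode proteins of the large subunit, which joins amino acids, and Mrps genes mostly encode proteins of the small subunit, which reads the messenger RNA. Some have bacterial counterparts and others are found in mitochondria only. The genes are broadly expressed and are often described as rising with growth and with mitochondrial mass.

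The organoids came from 1 mouse pancreatic ductal adenocarcinoma line, KPF_5.3G, and carried either the lentiviral short hairpin RNA shJag1_3 (3 libraries, labelled as Jag1 knockdown) or the control hairpin shCtrl (3 libraries, labelled WT). Jag1 encodes a ligand of the Notch receptors, and the design asks how it regulates CD9-high cells that start tumours and carry epithelial and mesenchymal traits together. Both groups grew in the same medium with nicotinamide, N-acetylcysteine, B27, gastrin, FGF-10, EGF, R-spondin-1 and Noggin, and the design calls the 3 libraries of a group biological replicates. Knockdown rests on 1 hairpin in 1 line, and the labels give no age, sex or passage.

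Libraries held between 22978141 and 35010147 gene reads in the shJag1_3 group and between 22110664 and 30354196 in the shCtrl group. Jag1 itself had normalised counts of 226, 321 and 557 in shJag1_3 libraries 1, 2 and 3, against 412, 983 and 847 in shCtrl libraries 1, 2 and 3. Each shJag1_3 library held less Jag1 than the shCtrl library of its own number, at 55.0%, 32.6% and 65.8% of it, but the groups overlapped. Limma gave Jag1 a log2 change of -1.03 (SE 0.45, adjusted p = 0.691), and DESeq2 with the replicate number as a term gave -1.02 (adjusted p = 0.0063). By exact permutation (two-sided) p was 0.2, and 0.1 is the smallest value that groups of 3 allow. All 8 tumour epithelium markers were listed, and their summed count ran from 237571 to 603750 in the shJag1_3 libraries and from 179302 to 246548 in the shCtrl libraries. Of the markers of other cells, 2 of 8 fibroblast, 1 of 8 immune, 2 of 5 endothelial and 1 of 6 acinar genes were listed. The immune one, Cd68, ran from 117 to 988 in shJag1_3 libraries and from 98.6 to 136 in shCtrl libraries, and its part in the results was not tested.

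Promoter stretches are shown first because members with 1 sequence motif all stood above 0 in the comparison that follows (7 of 13 of them under scaling to the spike-ins). They come from RefSeq on GRCm38.p6, in which 69 of the 78 members had a window from 250 bases before to 50 bases after the gene start. Capitals mark matches to GCGCA, any base, then GCGC, or to its reverse complement; this is the core of the site bound by NRF1, a regulator of nuclear genes for mitochondrial proteins. A match is a run of letters and does not show that a factor binds there. For Mrpl45 the 150 bases before the RefSeq start hold a pair of matches; for Mrpl17 and Mrpl12 the match is shown with 12 bases on each side.
Mrpl45, chr11:97315566-97315715, plus strand, GRCm38.p6: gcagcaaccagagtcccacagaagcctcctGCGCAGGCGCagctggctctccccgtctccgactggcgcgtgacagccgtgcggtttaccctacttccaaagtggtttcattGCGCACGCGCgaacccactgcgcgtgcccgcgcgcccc
Mrpl17, chr7:105811115-105811148, minus strand, GRCm38.p6: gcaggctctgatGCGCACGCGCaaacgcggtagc
Mrpl12, chr11:120484544-120484577, plus strand, GRCm38.p6: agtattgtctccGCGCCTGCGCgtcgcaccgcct
A further stretch lies between the RefSeq starts of Mrpl46 and Mrps11, which face away from each other on chromosome 7 with 41 bases between them. It holds the 29 of these bases that lie in no annotated exon. It is shown because these neighbours carried opposite signs between groups while starting so close together.
Mrpl46 and Mrps11, chr7:78783090-78783118, plus strand, GRCm38.p6: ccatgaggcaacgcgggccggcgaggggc

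No mitochondrial ribosomal protein gene passed the test between shJag1_3 and shCtrl organoids. Limma, adjusted over the 13997 genes tested, called 0 of 78, with adjusted p between 0.701 and 0.997, and called 0% of all genes. At an unadjusted p below 0.05 limma counted 0 of 78, beside 7.29% of all genes. EdgeR and DESeq2 on the recovered reads also called 0 of 78, and DESeq2 called 1.25% of all genes. With the replicate number as a term, DESeq2 again called 0 of 78 (smallest adjusted p = 0.0786, for Mrpl46) while calling 7.43% of all genes, and 3 members had an unadjusted p below 0.05, beside 18.2% of all genes. Limma with that term called 0 members and 0.0143% of all genes, with a smallest adjusted p of 0.166, and edgeR with it called 0 members, with a smallest adjusted p of 0.184. The 3 members under the unadjusted threshold were Mrpl46, Mrpl18 and Mrpl45.

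Differences were small throughout. The median log2 change of the 78 was 0.08, beside 0.00 over all tested genes, and 54 of 78 lay above 0, beside 50.3% of all genes. Scaling to the spike-in RNAs shifted the median of all genes to -0.18, and with it that of the members to -0.10, with 22 of 78 above 0; other signs are relative to the deposited size factors. Changes ran from -0.30 for Mrpl3 to 0.52 for Mrpl46, and 1 member moved by more than 0.5 in either direction, beside 24.5% of all genes. None moved by more than 1, beside 7.72% of all genes. The median depended on single libraries: it was -0.11 without shJag1_3 library 1, 0.16 without shJag1_3 library 2 and 0.20 without shJag1_3 library 3. It was 0.24 without shCtrl library 1, 0.01 without shCtrl library 2 and 0.02 without shCtrl library 3. In 70 of 78 members the change was smaller than the SD within groups.

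Intervals show what size of change these libraries could miss. The 95% interval of the limma fit stayed within 1 log2 unit of 0 for 69 of 78 members, and for all 78 once the replicate number was a term. Its median width to each side was 0.57 without the term and 0.35 with it. In 41 members the interval with the term stayed within 0.5 of 0. A miss of the threshold therefore leaves room for changes up to these bounds.

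**Figure D1:**
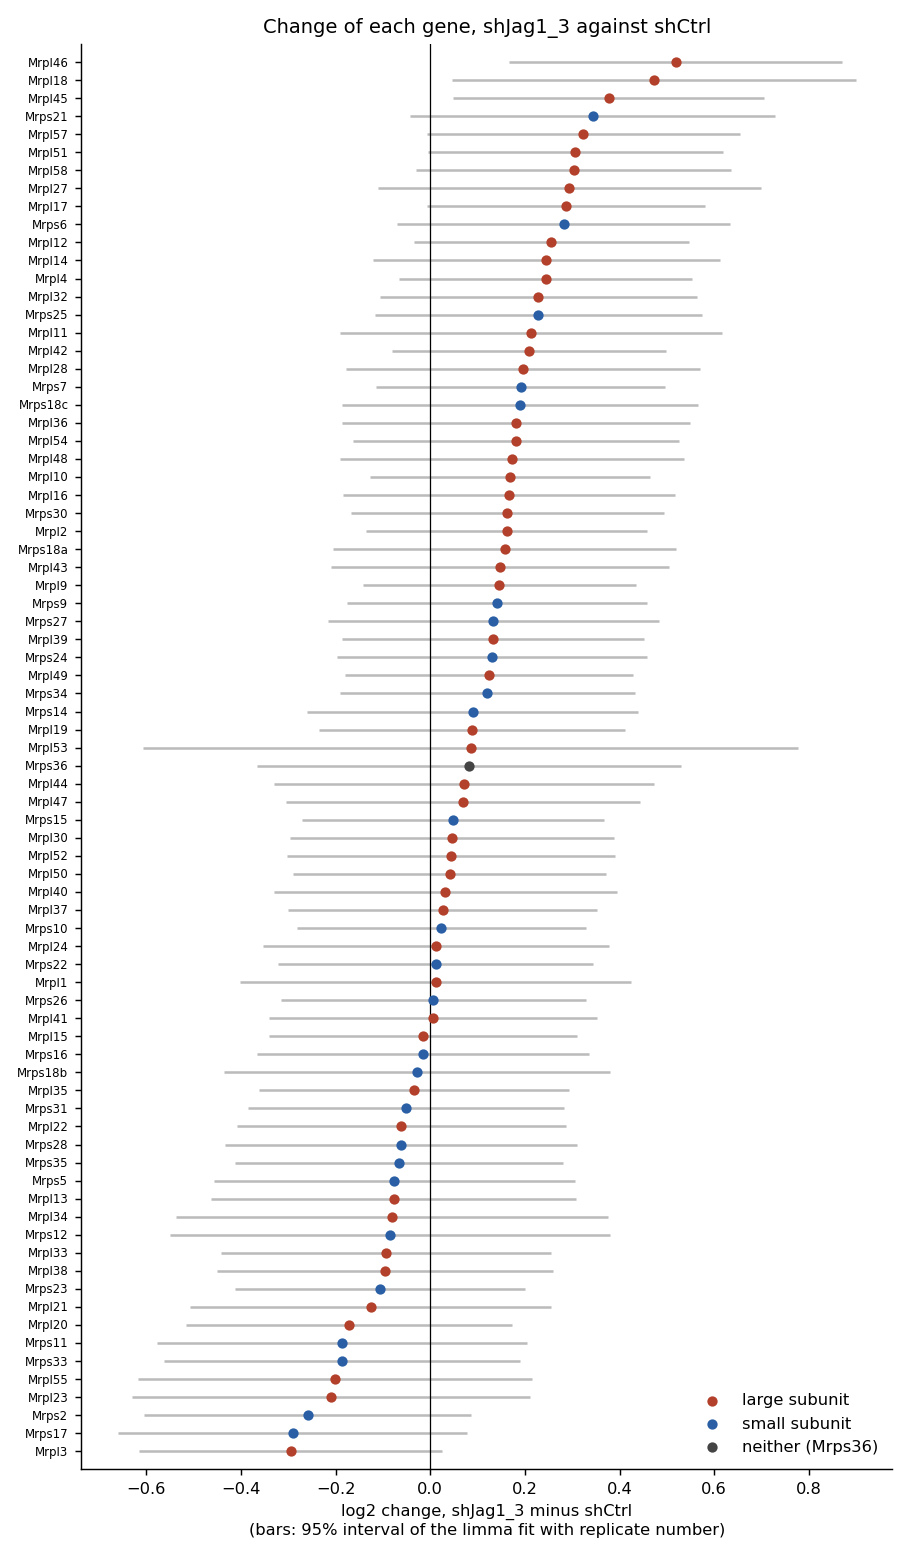
Log2 change, shJag1_3 minus shCtrl, of each of the 78 genes (points, coloured by ribosomal subunit) with the 95% interval of the limma fit that holds the replicate number as a term (bars), ordered by change. Points run from -0.30 for Mrpl3 to 0.52 for Mrpl46, and the intervals span 0 for all but Mrpl46, Mrpl18 and Mrpl45. Over all genes, 19.5% had an unadjusted p below 0.05 in that fit.

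The replicate number separated the members more than the hairpin did. Measured against its own mean over the 6 libraries, the median member stood at 0.41, -0.08 and -0.21 log2 units in shJag1_3 libraries 1, 2 and 3, and at 0.24, -0.18 and -0.17 in shCtrl libraries 1, 2 and 3. Both libraries numbered 1 lay above all the other 4 in 60 of 78 members, beside 23.7% of all genes. They lay below the other 4 in 1 member, beside 23.3% of all genes. The median difference between libraries numbered 1 and the others was 0.45 log2 units over members and -0.00 over all genes, and in 72 of 78 members this gap was larger than the change between groups. The highest of the 6 libraries was one numbered 1 in 72 members. These are values of libraries sharing a number, and what the number stands for is not given in the labels.

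Reads over all members made up 0.537%, 0.360% and 0.342% of gene reads in shJag1_3 libraries 1, 2 and 3, against 0.485%, 0.338% and 0.338% in shCtrl libraries 1, 2 and 3. Group means were 0.413% ± 0.107 in shJag1_3 and 0.387% ± 0.0846 in shCtrl (SD, n = 3 each). Both libraries numbered 1 held the larger shares, and the remaining 4 lay close together. In these bulk samples fewer cells with a transcript and less transcript per cell cannot be told apart. Transcripts of mitochondrial DNA ran the other way by number, at 0.555%, 1.02% and 1.20% of gene reads in shJag1_3 libraries, against 0.595%, 1.55% and 2.03% in shCtrl libraries.

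**Figure D2:**
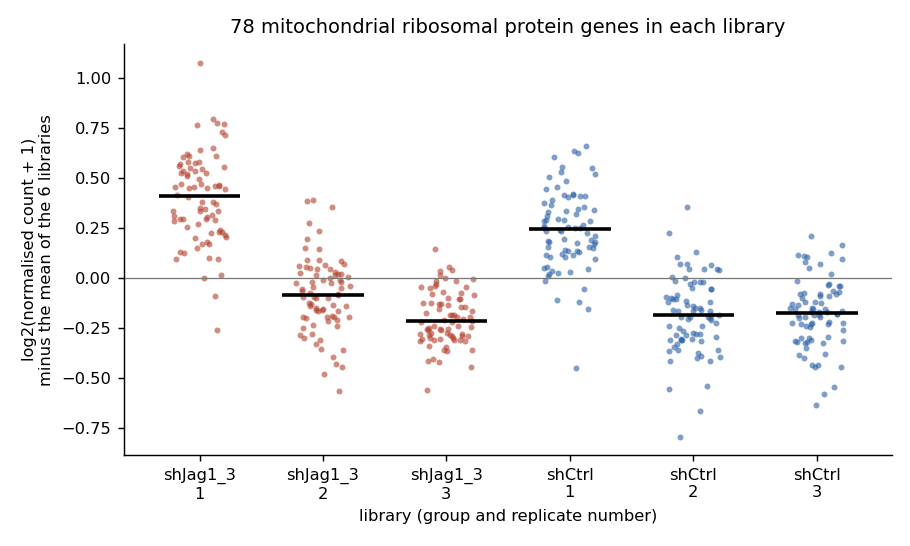
Each point is 1 of the 78 genes in 1 library, as log2(normalised count + 1) minus the gene's mean over the 6 libraries; black lines are medians. Libraries numbered 1 stand highest in both groups, with medians of 0.41 in shJag1_3 and 0.24 in shCtrl.

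Within same-numbered libraries, the median change of the members was 0.17 for number 1, 0.10 for number 2 and -0.02 for number 3. Above 0 were 63, 46 and 36 of 78 members in turn. A total of 26 members were higher in shJag1_3 in all 3 pairs, beside 22.3% of all genes, and 10 were lower in all 3, beside 19.7%. The other 42 did not keep 1 direction. The spread between pairs was narrower than over the transcriptome, with a median SD of 0.17 log2 units for members and 0.31 for all genes. This was not particular to the members. Among the lists described below it was 0.17 for translation factors, 0.18 for nuclear respiratory chain subunits, 0.19 for aminoacyl-tRNA synthetases and for other mitoribosome proteins, and 0.21 for assembly genes. It was 0.28 for biogenesis regulators, 0.45 for cytosolic ribosomal proteins and 0.60 for mitochondrial genome products.

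Large subunit genes and small subunit genes were described apart. Of 51 genes for large subunit proteins, 39 lay above 0, with a median log2 change of 0.13, and in pairs 1, 2 and 3 the median was 0.17, 0.16 and 0.04. Of 26 genes for small subunit proteins, 14 lay above 0, with a median of 0.01, and the pair medians were 0.11, -0.04 and -0.04. Mrps18a and Mrps30 are counted as large subunit here, since their proteins sit in that subunit in mammalian structures despite their names. By origin, the 48 genes classed as having a bacterial counterpart had a median of 0.06. The 30 classed as mitochondria-specific, with Mrpl58 and Mrps36 among them, had a median of 0.10. Under scaling to the spike-ins the large subunit median was -0.05 (17 above 0) and the small subunit median -0.17 (5 above 0), against -0.18 for all genes. The difference between these classes was not tested.

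Mrpl46 had the largest positive change. It encodes a mitochondria-specific protein of the central protuberance, the crest of the large subunit, and lies on chromosome 7 from 78775236 to 78783531 on the minus strand. Its normalised counts were 1536, 704 and 613 in shJag1_3 libraries 1, 2 and 3, against 1046, 459 and 468 in shCtrl libraries 1, 2 and 3. Every shJag1_3 library was above the shCtrl library of its number, while the groups overlapped because both libraries numbered 1 were far above the rest. The log2 change was 0.52 (SE 0.46, limma adjusted p = 0.855), and DESeq2 with the replicate term gave an adjusted p of 0.0786. Leaving out 1 library moved the change between 0.11 (without shJag1_3 library 1) and 0.91 (without shCtrl library 1).

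Mrps11, the gene at the other end of the 29-base stretch, encodes a small subunit protein with a bacterial counterpart that sits on the platform of that subunit. Counts were 813, 441 and 369 in shJag1_3 libraries 1, 2 and 3, against 843, 479 and 483 in shCtrl libraries 1, 2 and 3. Here every shJag1_3 library was below its numbered shCtrl library, and the log2 change was -0.19 (limma adjusted p = 0.944). Mrpl46 and Mrps11 therefore shared the high libraries numbered 1 and had opposite signs between groups, neither past the test. A second Mrpl46 transcript overlaps the first exon of Mrps11 on the opposite strand, so that 16.4% of the exon bases of Mrps11 are shared. The kit does not mark strand, and reads there cannot be assigned to 1 of the genes. Mrps11 was described after its values were seen.

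Mrpl18 encodes the counterpart of a bacterial protein that binds 5S ribosomal RNA. It had 2559, 1572 and 1369 normalised counts in shJag1_3 libraries 1, 2 and 3, against 2369, 866 and 1004 in shCtrl libraries 1, 2 and 3. Numbers 2 and 3 differed most between groups, and number 1 differed least. The log2 change was 0.47 (SE 0.43, limma adjusted p = 0.857), and between 0.20 (without shCtrl library 2) and 0.92 (without shCtrl library 1) with 1 library left out. Mrpl18 was the only member that any of the settings called: DESeq2 with the replicate term and without the libraries numbered 1 gave 0.65 (adjusted p = 0.0417). Those libraries decide this call, and that fit called 2178 genes in all. Tcp1, a chaperonin gene on the opposite strand, overlaps Mrpl18 and had a log2 change of -0.07. Of the exon bases of Mrpl18, 11.6% are shared with Tcp1, and reads there cannot be assigned to 1 of the genes.

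Mrpl45 was the only member whose groups did not overlap with shJag1_3 higher, beside 6.29% of all genes. Its protein sits by the mouth of the peptide exit tunnel and tethers the ribosome to the inner membrane. Counts were 2785, 2901 and 2146 in shJag1_3 libraries 1, 2 and 3, against 2093, 1972 and 1917 in shCtrl libraries 1, 2 and 3. Even the lowest shJag1_3 library exceeded the highest shCtrl library, by little. Limma put the log2 change at 0.38 (SE 0.17, adjusted p = 0.701), and DESeq2 with the replicate term gave an adjusted p of 0.226. Unlike most members, Mrpl45 was not set apart by the libraries numbered 1, which exceeded the others by 0.13 log2 units.

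Mrps33 was the only member whose groups did not overlap with shJag1_3 lower, beside 5.44% of all genes. It encodes a mitochondria-specific small subunit protein. Counts were 646, 641 and 517 in shJag1_3 libraries 1, 2 and 3, against 682, 687 and 675 in shCtrl libraries 1, 2 and 3. The shCtrl libraries were nearly level and shJag1_3 library 3 stood lowest. The log2 change was -0.19 (SE 0.19, limma adjusted p = 0.875), and -0.0812 without shJag1_3 library 3.

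**Figure D3:**
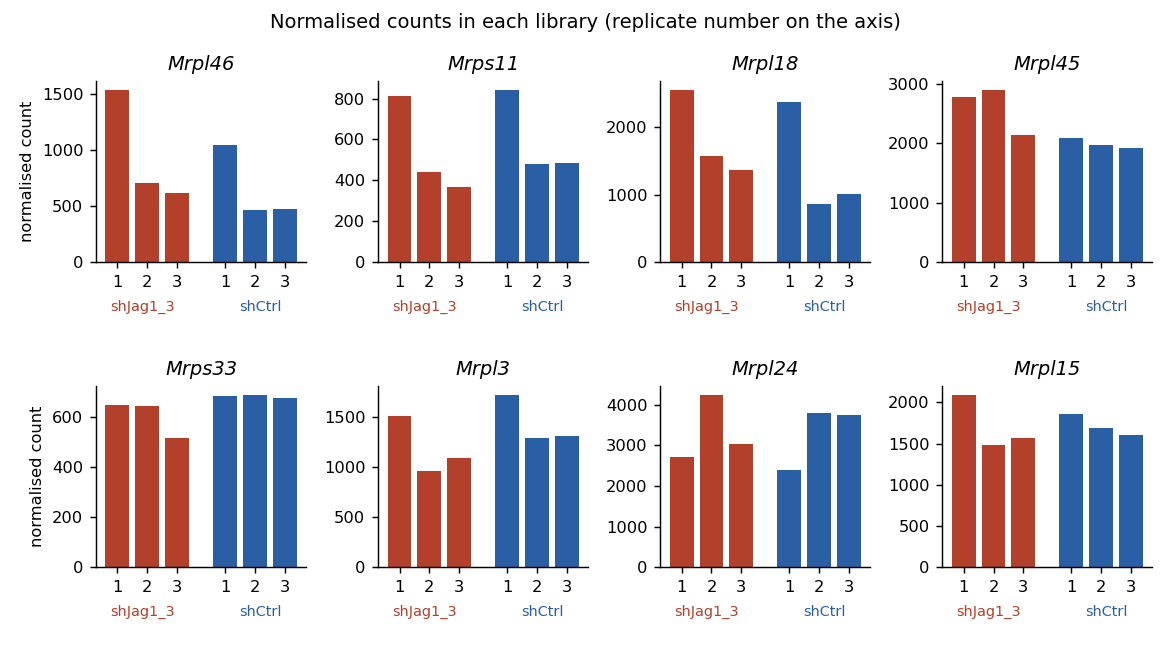
Normalised counts of 8 genes in each library, shJag1_3 in red at left and shCtrl in blue at right, with the replicate number under each bar. Mrpl46, Mrps11 and Mrpl18 are highest in the libraries numbered 1 of both groups, Mrpl45 and Mrps33 have groups that do not overlap, and Mrpl24 is lowest in both libraries numbered 1.

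The other genes with the most positive changes were Mrps21, Mrpl57 and Mrpl51. Mrps21, a small subunit gene with a bacterial counterpart, had 3839.7, 3159 and 2101 counts in shJag1_3 libraries 1, 2 and 3, against 2912, 2039.7 and 2102 in shCtrl libraries. Pairs 1 and 2 differed and pair 3 was level, for a log2 change of 0.34 (SE 0.27, limma adjusted p = 0.833). Mrpl57 and Mrpl51 encode large subunit proteins found in mitochondria only. Mrpl57 had 2199.6, 1628 and 1624 counts in shJag1_3 libraries, against 2035, 1227 and 1188 in shCtrl libraries, a log2 change of 0.32. Mrpl51 had 2764, 2031 and 1702 counts in shJag1_3 libraries, against 2288, 1473 and 1497 in shCtrl libraries, a log2 change of 0.31. Both were higher in shJag1_3 in every pair, and the groups of each overlapped. Without shJag1_3 library 1 the changes of Mrps21, Mrpl57 and Mrpl51 were 0.15, 0.18 and 0.12, and without shCtrl library 1 they were 0.51, 0.57 and 0.51. Mrps21 was highest without shJag1_3 library 3, at 0.59.

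Mrpl3 had the most negative change. It encodes the counterpart of a bacterial protein that reaches towards the peptidyl transferase centre, the site of peptide bond formation. Counts were 1517, 958 and 1089.6 in shJag1_3 libraries 1, 2 and 3, against 1725, 1297 and 1309 in shCtrl libraries 1, 2 and 3. The shJag1_3 library was the lower of every pair, and the log2 change was -0.30 (SE 0.23, limma adjusted p = 0.835). It was -0.48 without shJag1_3 library 1, -0.15 without shJag1_3 library 2 and -0.16 without shCtrl library 1.

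Next came Mrps17 and Mrps2, small subunit genes with bacterial counterparts. Mrps17 had 1360.3, 1015 and 942 counts in shJag1_3 libraries, against 1383, 1270.2 and 1357 in shCtrl libraries, a log2 change of -0.29 (limma adjusted p = 0.800). Mrps2 had 1107, 655 and 747 counts in shJag1_3 libraries, against 1215, 879 and 869.5 in shCtrl libraries, a log2 change of -0.26 (limma adjusted p = 0.877). Each was lower in shJag1_3 in all 3 pairs, least so in pair 1. Mrpl23, whose bacterial counterpart lies at the exit tunnel, had 802, 790.1 and 652 counts in shJag1_3 libraries, against 721, 1027 and 866 in shCtrl libraries. Its pair 1 ran against pairs 2 and 3, for a log2 change of -0.21. Mrpl55, a large subunit gene with a bacterial counterpart, had 513, 398 and 353 counts in shJag1_3 libraries, against 533, 432 and 477 in shCtrl libraries, a log2 change of -0.20. With 1 library left out, changes ran from -0.45 to -0.18 for Mrps17 and from -0.48 to -0.10 for Mrps2, each most negative without shJag1_3 library 1. Mrpl23 ran from -0.34 (without shCtrl library 1) to -0.0847 (without shCtrl library 2), and Mrpl55 from -0.35 (without shJag1_3 library 1) to -0.0830 (without shJag1_3 library 3).

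Genes of the stalk were examined because the stalk recruits the translation factors. Mrpl12, the gene of the protein that carries out this contact, had 6078, 3162 and 2931 counts in shJag1_3 libraries 1, 2 and 3, against 4807, 2671 and 2576 in shCtrl libraries 1, 2 and 3. It had the highest mean count of all members, and its libraries numbered 1 exceeded the rest by 0.94 log2 units. Its change between groups was 0.26 (SE 0.36, limma adjusted p = 0.915). Mrpl10, the stalk base, had 2600.4, 2402.3 and 2195 counts in shJag1_3 libraries, against 2349, 1990.3 and 2067 in shCtrl libraries, a log2 change of 0.17. Mrpl11, which forms the factor-binding site with the ribosomal RNA, had 1411, 817 and 623 counts in shJag1_3 libraries, against 1057, 645 and 675 in shCtrl libraries, a log2 change of 0.21. All 3 stalk genes were above 0, except Mrpl10 under spike-in scaling (-0.0123), but without shJag1_3 library 1 Mrpl11 stood at -0.11 and Mrpl12 at -0.0766.

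Mrpl58 encodes a peptidyl-tRNA hydrolase that frees stalled mitoribosomes and is also built into the large subunit. It had 1471, 848 and 699 counts in shJag1_3 libraries 1, 2 and 3, against 1220.4, 644 and 589 in shCtrl libraries 1, 2 and 3. Every pair was higher in shJag1_3, at a log2 change of 0.30 (SE 0.39, limma adjusted p = 0.901), which was -0.0073 without shJag1_3 library 1. Mrpl15, a large subunit gene with a bacterial counterpart, had 2093, 1488 and 1567 counts in shJag1_3 libraries, against 1865, 1686 and 1602 in shCtrl libraries. Its group means of 1716 ± 329 in shJag1_3 and 1718 ± 134 in shCtrl (SD, n = 3 each) nearly coincided, with a log2 change of -0.02 (limma adjusted p = 0.993), which changed sign with 1 library left out (-0.17 to 0.0792).

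In the small subunit, Mrps12 encodes the counterpart of a decoding-centre protein and Mrps7 a protein of the head near the transfer RNAs. Mrps12 had 1801, 1274 and 999 counts in shJag1_3 libraries 1, 2 and 3, against 1391, 1399 and 1405 in shCtrl libraries 1, 2 and 3. Its shCtrl libraries were level while the shJag1_3 libraries spread to both sides of them, for a log2 change of -0.08 (0.12 without shJag1_3 library 3). Mrps7 had 2874, 1810.0 and 1589 counts in shJag1_3 libraries, against 2388, 1525 and 1526 in shCtrl libraries, a log2 change of 0.19 (-0.0629 without shJag1_3 library 1).

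Mrps18a, Mrps18b and Mrps18c are paralogs of 1 bacterial gene, of which the first sits in the large subunit. Mrps18a had 2222, 1357 and 1185 counts in shJag1_3 libraries, against 1654, 1251 and 1246 in shCtrl libraries, a log2 change of 0.16. Mrps18b had 1210.3, 595 and 914 counts in shJag1_3 libraries, against 1152, 767 and 789 in shCtrl libraries, a log2 change of -0.03. Mrps18c had 1193, 863 and 692 counts in shJag1_3 libraries, against 1113, 634 and 680.2 in shCtrl libraries, a log2 change of 0.19. Without shJag1_3 library 1 the changes of Mrps18a and Mrps18c were -0.11 and -0.0187, and Mrps18b was 0.25 without shJag1_3 library 2; scaling to the spike-ins put Mrps18a at -0.0235. None was past the test, and 59.1% of the exon bases of Mrps18b lie in another annotated gene on the opposite strand. Mrps30, another large subunit gene, had 998, 801 and 765 counts in shJag1_3 libraries, against 886, 719 and 684 in shCtrl libraries, a log2 change of 0.16. Mrps36, whose product is a part of the 2-oxoglutarate dehydrogenase complex rather than of the ribosome, had 653, 720.1 and 529.5 counts in shJag1_3 libraries, against 746, 524 and 538 in shCtrl libraries. Its log2 change was 0.08, with pair 2 running against pairs 1 and 3, and -0.0154 without shJag1_3 library 2. Under scaling to the spike-ins Mrps30 stood at -0.0172 and Mrps36 at -0.0987.

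Mrpl24, described after its values were seen, was the member that ran against the rest by replicate number. Its bacterial counterpart starts the assembly of the large subunit. It had 2713, 4240.5 and 3022 counts in shJag1_3 libraries 1, 2 and 3, against 2379, 3793 and 3756 in shCtrl libraries 1, 2 and 3. Libraries numbered 1 were the lowest of each group, with a difference of -0.53 log2 units from the others, and the change between groups was 0.01. Of its exon bases 43.6% lie in Rrnad1 on the opposite strand, and its counts cannot be told apart from those of that gene over this stretch. Only 1 other member, Mrpl23, was lower in the libraries numbered 1 (-0.11), while Mrpl46 and Mrpl18 were highest there, by 1.20 and 1.07.

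Levels were compared as normalised counts per kilobase of the principal transcript. Highest were Mrps21 at 5517, Mrpl52 at 5401 and Mrpl42 at 3674 per kilobase, and lowest were Mrpl53 at 65.0, Mrpl48 at 142 and Mrpl47 at 176, around a median of 914. By library, Mrps21 ran from 4306 to 7868 per kilobase in shJag1_3 and from 4179.7 to 5968 in shCtrl, and Mrpl52 from 4393 to 6752 in shJag1_3 and from 4807 to 5616 in shCtrl. For Mrps21 and Mrpl52 the ranges of the groups therefore overlapped. Principal transcripts ran from 418 to 7300 bases, and of the 20 lowest members 19 had one over 2000 bases, against 0 of the 20 highest. The level is a count divided by this length, so level and length are not independent measures here. What places long transcripts low in this order, and whether the organoids use these long transcripts, was not tested.

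**Figure D4:**
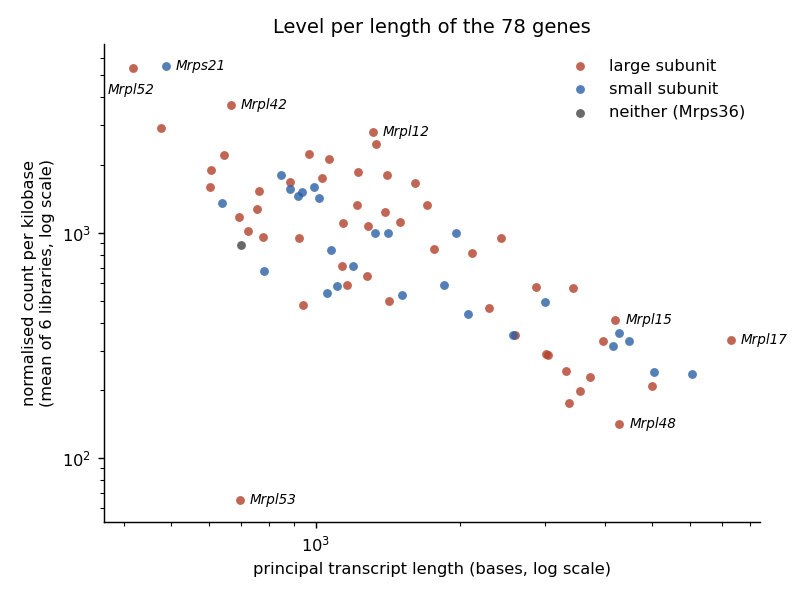
Mean normalised count per kilobase over the 6 libraries against the length of the principal transcript, both on log scales, for the 78 genes coloured by subunit. Genes with long transcripts lie low, and the level is itself divided by this length. Mrpl53, with a short transcript, lies lowest at 65.0.

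Among these 6 genes, Mrps21 had the largest change between groups (0.34, described above), and none was past the test. Mrpl52 had 2822, 2261 and 1836 normalised counts in shJag1_3 libraries, against 2268, 2347 and 2009 in shCtrl libraries, a log2 change of 0.04. Mrpl42 had 3534, 2257 and 2097 counts in shJag1_3 libraries, against 2971, 1918 and 1905 in shCtrl libraries, a log2 change of 0.21. Both are mitochondria-specific genes of the large subunit. Mrpl48 had 835, 584 and 512 counts in shJag1_3 libraries, against 768, 479 and 473 in shCtrl libraries, a log2 change of 0.17. Mrpl47 had 795, 452 and 579 counts in shJag1_3 libraries, against 718, 481 and 522 in shCtrl libraries, a log2 change of 0.07. Without shJag1_3 library 1 these 4 changes were -0.11 for Mrpl52, -0.0251 for Mrpl42, -0.0307 for Mrpl48 and -0.14 for Mrpl47. Mrpl53 had the lowest counts of all members, at 50.0, 45.5 and 43.6 in shJag1_3 libraries, against 53.0, 39.0 and 39.9 in shCtrl libraries. All of its exon bases (100%) are shared with other annotated genes, so its level is uncertain. In all, 28 members share exon bases with another gene, and 4 of them, Mrpl53, Mrps25, Mrps34 and Mrps18b, by more than 50%.

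Neighbours on the opposite strand that start nearby were compared with the members. For 33 members such a protein-coding gene started within 1000 bases, and 28 of these neighbours were tested and not themselves members. Not all of them start back to back, since some pairs overlap at their starts, such as Mrpl18 and Tcp1 (start distance -644 bases). The kit does not mark strand, and reads shared by such pairs were not set apart. Of these 28, 14 had the sign of their member and 14 the opposite one. DESeq2 with the replicate term called 2 of the 28 neighbours (7.14%), close to the 7.43% it called over all genes. Ncapd2, a condensin subunit gene beside Mrpl51, had 5114, 4509.6 and 4167 counts in shJag1_3 libraries, against 4517, 1716 and 1976 in shCtrl libraries (adjusted p = 0.018). Klc4, a kinesin light chain gene beside Mrpl2, had a log2 change of 0.70 (adjusted p = 0.017 in DESeq2 with the replicate term). Limma called neither, with adjusted p of 0.674 for Ncapd2 and 0.606 for Klc4.

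Promoter letters were counted in the 69 windows and in the windows of 9691 genes, on both strands. The NRF1 core was in 13 members (18.8%), beside 10.8% of genes, and CCGGAAG, the core bound by ETS factors such as GABP, in 24 (34.8%), beside 18.9%. AAGATGGCG, the core bound by YY1, was in 8 (11.6%), beside 3.34% of genes. CACGTG, the E-box bound by MYC, was in 5 (7.25%), beside 10.2%, and CCAAT was in 27 (39.1%), beside 39.1%. At least 1 of the first 3 was in 39 members (56.5%), beside 29.7% of genes. These shares are descriptions, and no match says only that these letters are not in the window.

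All 13 members with the NRF1 core had a change above 0, from 0.01 for Mrps26 to 0.38 for Mrpl45, with a median log2 change of 0.23, whereas under scaling to the spike-ins 7 of 13 were above 0 with a median of 0.05. The 56 members with a window and no match had a median of 0.05, with 37 above 0 (-0.13 and 13 under that scaling). In pairs 1, 2 and 3, 13, 12 and 9 of the 13 were higher in shJag1_3. Mrpl17, shown above with its match and with a protein at the exit tunnel side of the large subunit, had 3466, 2413 and 2172 counts in shJag1_3 libraries, against 2987, 1855 and 1804 in shCtrl libraries. It was higher in shJag1_3 in every pair, at a log2 change of 0.29 (limma adjusted p = 0.870), and was described after its values were seen. Over all genes with this match, 50.6% of 1047 lay above 0, with a median of 0.00. Limma and DESeq2 with the replicate term called none of the 13, beside 0% and 7.43% of all genes. In the limma fit with that term 1 of the 13 had an unadjusted p below 0.05, beside 19.5% of all genes. This split was seen among 5 motifs and was not tested.

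The 5 proteins of the mitoribosome named outside the Mrp series had a median log2 change of 0.22. Limma and DESeq2 with the replicate term called 0 of them, beside 0% and 7.43% of all genes. Dap3, a GTP-binding small subunit protein, had 3416, 4093 and 3619.6 counts in shJag1_3 libraries 1, 2 and 3, against 3068, 3367 and 3106 in shCtrl libraries 1, 2 and 3. Its groups did not overlap, with shJag1_3 higher (beside 6.29% of all genes), at a log2 change of 0.22 (limma adjusted p = 0.803). Gadd45gip1 and Chchd1 stood at 0.24 each, Aurkaip1 at 0.01 and Ptcd3 at -0.27. Of 27 assembly and rRNA modification genes, limma and DESeq2 with the replicate term called 0, beside 0% and 7.43% of all genes. Their median was -0.00. The 18 translation factor genes had a median of 0.02 and the 22 aminoacyl-tRNA synthetase genes one of 0.02. Of these, too, both fits called 0, beside the same shares of all genes. At an unadjusted p below 0.05 limma counted 0 assembly genes, 1 translation factor and 1 synthetase, beside 7.29% of all genes. C1qbp, a matrix protein that binds RNA, had 5326, 3165 and 4071 counts in shJag1_3 libraries, against 5943, 5869.8 and 5591 in shCtrl libraries. All its shJag1_3 libraries were below all its shCtrl libraries, at -0.50 (limma adjusted p = 0.690). Of the 18 translation factors, 2 had groups that did not overlap with shJag1_3 lower, beside 5.44% of all genes. Another 2 of them, 2 of 27 assembly genes and 2 of 22 synthetases did not overlap with shJag1_3 higher, beside 6.29% of all genes. Of the assembly genes and synthetases, 0 did not overlap with shJag1_3 lower.

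The products of mitochondrial DNA, which the mitoribosome reads or is built on, had a median log2 change of -0.54 over 14 genes. Limma called 0 of them, and 0 had an unadjusted p below 0.05, beside 7.29% of all genes. DESeq2 with the replicate term called 3 lower, beside 2.71% of all genes. These were mt-Nd5 and mt-Nd2, which encode complex I subunits, and mt-Rnr2, the large ribosomal RNA. Counts of mt-Rnr2 were 8791, 8867 and 13519 in shJag1_3 libraries 1, 2 and 3, against 9455, 20628 and 25004 in shCtrl libraries 1, 2 and 3. It fell by 0.74 on the log2 scale in that fit (adjusted p = 0.041), and the groups overlapped. Pair 1 was level for the list, with pair medians of 0.02, -0.46 and -0.83. For the members the pair medians were 0.17, 0.10 and -0.02.

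Of 16 regulators of mitochondrial biogenesis, limma called 0, and 2 had an unadjusted p below 0.05, beside 7.29% of all genes. DESeq2 with the replicate term called 1, beside 7.43% of all genes. Ppargc1a, the coactivator of mitochondrial biogenesis, had 153, 19.7 and 45.8 counts in shJag1_3 libraries 1, 2 and 3, against 240.3, 148 and 188 in shCtrl libraries 1, 2 and 3. It fell by 1.82 on the log2 scale there (adjusted p = 0.0072), while limma gave it an adjusted p of 0.668. Myc, a driver of growth genes, had 1765, 8121 and 10582 counts in shJag1_3 libraries, against 1324, 15108 and 14839 in shCtrl libraries, a log2 change of -0.32 (limma adjusted p = 0.973). Its libraries numbered 1 were the lowest of each group, at -2.95 log2 units from the others, whereas most members were highest there.

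Subunits of the respiratory chain encoded in the nucleus were also mostly highest in the libraries numbered 1. Of 74, 57 had both libraries numbered 1 above the other 4, and 68 lay above 0 between groups, with a median log2 change of 0.18 (38 and 0.00 under scaling to the spike-ins). Limma called 0, and 1 had an unadjusted p below 0.05, beside 7.29% of all genes. DESeq2 with the replicate term called 1 higher, beside 4.73% of all genes. That gene, Cox6a1 of complex IV, had 12259, 10716 and 8242 counts in shJag1_3 libraries, against 8920.4, 5665 and 5859.8 in shCtrl libraries, and rose by 0.62 (adjusted p = 0.015). Of 76 cytosolic ribosomal protein genes, 4 lay above 0, with a median of -0.26 and pair medians of 0.26, -0.44 and -0.59. Only 4 of the 76 had both libraries numbered 1 above the others, against 60 of 78 members. DESeq2 with the replicate term called 1 of them higher, beside 4.73% of all genes: Rpl22l1, at 0.72 (adjusted p = 0.013). Limma called 0 of the 76 (1 at an unadjusted p below 0.05, beside 7.29% of all genes). The differences between these lists were not tested.

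**Figure D5:**
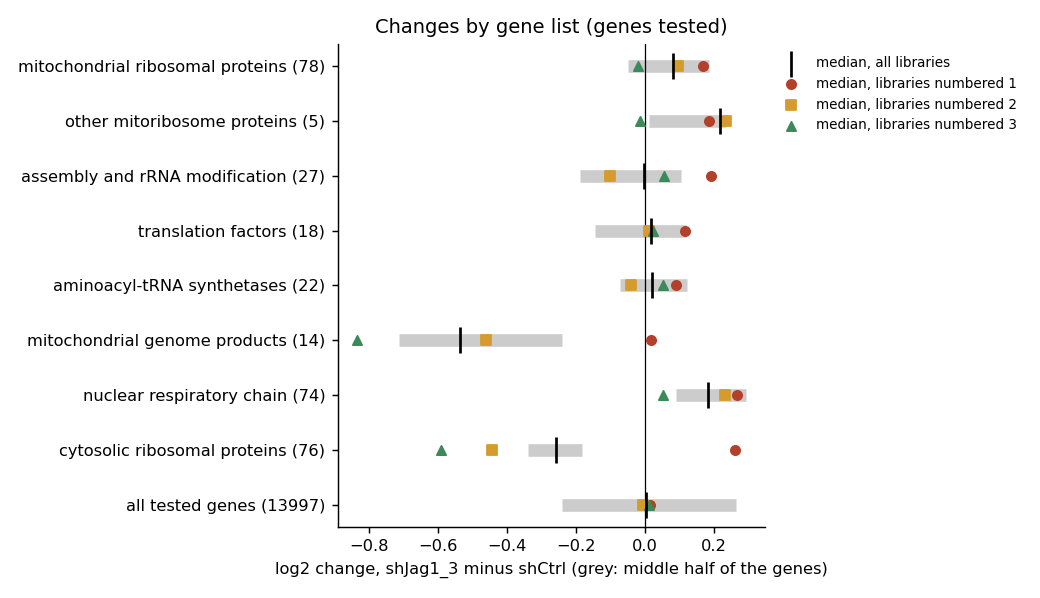
Median log2 change, shJag1_3 minus shCtrl, of the 78 genes and of related gene lists (black ticks), with the middle 50% of genes (grey) and the median within each pair of same-numbered libraries (coloured symbols). On the deposited scale the 78 genes centre on 0.08 (-0.10 under spike-in scaling), nuclear respiratory chain genes on 0.18, mitochondrial genome products on -0.54 and cytosolic ribosomal protein genes on -0.26.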

How the data were processed

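Total RNA was made into libraries with a TruSeq RNA kit, which does not mark strand, per the labels' protocols. Reads were processed with Trimmomatic, STAR 2.5.2b and DESeq2 1.32.0 on GRCm38, per the submitters' processing notes; the counter and annotation are not given in the sources used here. The deposited signal is a normalised count per gene and library, which the authors made by dividing reads by 1 size factor per library. Of the values, 100% were whole multiples of 1 read within 0.001 read, so whole reads were recovered. The 6 deposited tables were identical and 1 was used. Symbols and positions came from GENCODE M21 for 14226 of 14254 genes; 48 spike-ins entered no gene test.

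Limma 3.58.1 in R 4.3.3 tested log2(normalised count + 1), shJag1_3 minus shCtrl, for 13997 genes with a count of at least 10 in at least 3 libraries (limma-trend, Benjamini-Hochberg over all tested genes, threshold 0.05). EdgeR 4.0.16 and DESeq2 1.42.0 on recovered reads, which called 0 and 174 genes without a replicate term, were alternatives, as were other pseudocounts, filters and scalings and leaving out libraries. Fits were also run on simulated data with changes set the same in every pair of same-numbered libraries. That run takes the pairing as given and says nothing about whether it holds. Deviations from group means correlated over genes at r = 0.68, 0.57 and 0.44 for libraries numbered 1, 2 and 3. All were above 0.1, so numbers were treated as pairs. Libraries 2 and 3 also correlated above 0.1 when crossed (0.38 and 0.37), so this rule does not settle how those libraries pair. Named genes were Mrpl15, the 6 members with the most positive and the 6 with the most negative change, the 3 highest and the 3 lowest per length, members of set roles and, from other lists, called and highest genes. Members and lists were chosen with earlier results of these data known.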

Additional observations from a re-analysis of the deposited data

How the results depend on the processing

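No setting except 1 called a member: DESeq2 with the replicate block and without replicate 1 called 1, Mrpl18. Over all genes, limma and edgeR with the replicate block called 2 each, DESeq2 174, DESeq2 with the block 1000, scaling to the spike-ins 116 and replicates 2 and 3 only 1346. DESeq2 with the block called 2178, 100 and 128 genes without replicate 1, 2 and 3. Leaving out 1 library gave 0 to 294 genes in limma, the most without shCtrl replicate 1. Jag1 was past the threshold at -1.02 in DESeq2 with the block and at -1.10 there without replicate 1.

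The median change of members ran from -0.11 to 0.24 with libraries left out. Scaling to the spike-ins moved the median of all genes to -0.18 and that of members to -0.10. The members' reads were 60.0% ± 22.3 of spike-in reads in shJag1_3 and 62.9% ± 24.5 in shCtrl (SD, n = 3 each). The relative difference of -4.56% lay well within this spread. Spike-ins made up 0.740%, 1.04% and 0.462% of reads in shJag1_3 libraries 1, 2 and 3. In shCtrl libraries 1, 2 and 3 they made up 0.529%, 0.668% and 0.711%. Under that scaling Mrpl52 (-0.14), Mrpl53 (-0.0905), Mrpl48 (-0.0076), Mrpl47 (-0.11), Mrpl10 (-0.0123), Mrps18a (-0.0235), Mrps30 (-0.0172) and Mrps36 (-0.0987) changed sign. Mrps18b was 0.0063 in edgeR and in DESeq2. Mrpl52 was -0.0921 with replicates 2 and 3 only and in DESeq2 with the block without replicate 1. In DESeq2 with the block and without replicate 2, Mrpl15 was 0.0675, Mrps18b 0.14 and Mrps36 -0.11; without replicate 3, Mrps12 was 0.12. With 1 library left out, signs changed within -0.11 to 0.47 for Mrpl11, -0.0766 to 0.55 for Mrpl12, -0.17 to 0.0792 for Mrpl15, -0.0251 to 0.42 for Mrpl42, -0.14 to 0.26 for Mrpl47 and -0.0307 to 0.40 for Mrpl48. They also changed within -0.11 to 0.20 for Mrpl52, -0.0073 to 0.63 for Mrpl58, -0.31 to 0.12 for Mrps12, -0.0629 to 0.41 for Mrps7, -0.11 to 0.34 for Mrps18a, -0.27 to 0.25 for Mrps18b, -0.0187 to 0.44 for Mrps18c and -0.0154 to 0.24 for Mrps36. Of 608 values for the 29 named members, 571 kept direction and side of the threshold, 36 changed sign and 1 passed the threshold. The causes were not tested. Among members the replicate block changed no other call. Depth limits Mrpl53 most, with a mean of 45.2 counts.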
